A study of Rattus norvegicus and Bos taurus with 12 samples.

Results

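The genes examined here encode proteasome subunits, the caps and inhibitor that dock on the proteasome, and its dedicated assembly chaperones, taken as each row of the deposited tables whose symbol begins with Psm and a letter from a to g. That rule found 45 of 9167 rows, 41 of 7052 in the table of adult rat ventricular myocytes (ARVM) and 4 of 2115 in the table of calf right ventricular cardiac fibroblasts (Cfib). Because 3 genes were in both tables, the 45 rows cover 42 symbols. The rat cells came from healthy adult Sprague Dawley hearts, and the study compared freshly isolated, untreated ARVM (control ARVM, 3 libraries, labelled con4, con5 and con6) with ARVM kept for 7 days in medium conditioned by fibroblasts of calves with pulmonary hypertension (PH-CM ARVM, 3 libraries, labelled ha2, ha209 and ha211). The Cfib were cultured from the right ventricle of control calves housed at Denver altitude (CO Cfib, 3 libraries) and of neonatal calves with pulmonary hypertension from hypobaric hypoxia (PH Cfib, 3 libraries), and both were kept in serum-free medium before harvest. The labels' treatment entry speaks instead of serum from low- or high-altitude cows. No genetic change is described for either ARVM arm, but only 1 arm was cultured, so time in culture and PH-CM cannot be told apart. The fibroblasts were described as taken from separate animals, whereas nothing says that the ARVM libraries are separate isolations, and their p-values measure only the spread between these libraries.

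The proteasome is the main protease for proteins tagged with ubiquitin. Its core, the 20S particle, is a barrel of alpha and beta rings in which 3 beta subunits cut, and the 19S regulatory particle on its end binds ubiquitin chains, removes them and unfolds the substrate with a ring of ATPases. Interferons and other inflammatory signals induce 3 alternative catalytic subunits, Psmb8, Psmb9 and Psmb10, which replace Psmb5, Psmb6 and Psmb7 in newly built particles. The resulting immunoproteasome favours peptides that fit major histocompatibility complex (MHC) class I molecules. In heart muscle the proteasome clears damaged and sarcomeric proteins, and the constitutive subunits are made in every nucleated cell.

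A few promoter windows are shown first, since the immunoproteasome subunits and their core partners differed in direction in ARVM as deposited. They are the windows among the 3 catalytic pairs and Psme2 that hold a match to a core of the antioxidant response element (TGACNNNGC) or of the interferon-stimulated response element (GAAA, any 2 bases and GAAA again). The sequences are from RefSeq, build GRCr8, run from 250 bases before to 50 bases after the annotated start, and are written 5′ to 3′ on the gene's strand. Capitals mark the matches on either strand. The reads were aligned to another build, rn6, and no coordinates from it are given.
Psmb8 (chr20:4656982-4657281, minus strand): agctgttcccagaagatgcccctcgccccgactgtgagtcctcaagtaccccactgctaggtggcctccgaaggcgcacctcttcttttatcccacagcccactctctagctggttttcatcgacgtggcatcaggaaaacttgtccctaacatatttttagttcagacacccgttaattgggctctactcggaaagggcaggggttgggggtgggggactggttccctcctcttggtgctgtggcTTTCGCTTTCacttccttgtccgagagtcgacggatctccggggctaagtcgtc
Psmb10 (chr19:50743243-50743542, minus strand): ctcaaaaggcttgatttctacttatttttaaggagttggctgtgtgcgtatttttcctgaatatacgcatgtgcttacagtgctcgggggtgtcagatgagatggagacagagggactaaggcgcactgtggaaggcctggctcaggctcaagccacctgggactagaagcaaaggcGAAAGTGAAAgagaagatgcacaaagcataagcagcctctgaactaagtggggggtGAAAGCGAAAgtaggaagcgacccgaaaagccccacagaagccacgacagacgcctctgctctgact
Psme2 (chr15:33052702-33053001, minus strand): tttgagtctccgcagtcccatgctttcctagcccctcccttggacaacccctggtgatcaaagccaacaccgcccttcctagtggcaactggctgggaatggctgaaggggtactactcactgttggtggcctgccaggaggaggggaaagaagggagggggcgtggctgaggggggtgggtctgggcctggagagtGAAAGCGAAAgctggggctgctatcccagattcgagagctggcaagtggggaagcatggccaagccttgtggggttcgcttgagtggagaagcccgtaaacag
Psmb5 (chr15:32047330-32047629, minus strand): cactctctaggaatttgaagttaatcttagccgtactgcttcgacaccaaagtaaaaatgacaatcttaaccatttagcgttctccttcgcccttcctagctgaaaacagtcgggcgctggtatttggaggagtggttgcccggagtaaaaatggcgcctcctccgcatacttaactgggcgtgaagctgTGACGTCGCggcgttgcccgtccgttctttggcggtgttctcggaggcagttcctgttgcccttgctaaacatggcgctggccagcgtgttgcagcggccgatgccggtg
Psmb6 (chr10:55737638-55737937, plus strand): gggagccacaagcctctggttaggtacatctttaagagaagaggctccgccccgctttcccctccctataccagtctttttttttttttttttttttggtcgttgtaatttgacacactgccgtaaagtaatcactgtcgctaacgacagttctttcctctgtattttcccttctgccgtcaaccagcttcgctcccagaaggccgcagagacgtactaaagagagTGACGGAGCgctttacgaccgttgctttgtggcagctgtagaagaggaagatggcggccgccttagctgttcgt
The windows of Psmb7 and Psmb9 hold neither pattern. Of the 40 ARVM symbols searched, the Psma3l row left out because GRCr8 lists that name as a synonym of Psma3, 36 had a window. The interferon pattern, which was added after the values had been seen, is in 3 of 6 windows of members higher in PH-CM ARVM as deposited (Psmb8, Psmb10 and Psme2), in 3 of 30 of those lower (Psma4, Psmb3 and Psmd7) and in 3.92% of 33469 windows of all genes. The antioxidant pattern is in 8 of the 30 windows of members lower as deposited (Psma3, Psmb2, Psmb5, Psmb6, Psmd1, Psmd3, Psme4 and Psmd9). It is in 0 of the 6 of higher ones and in 12.1% of all windows. Both splits by direction hold only for the deposited scaling. With each library brought to the same total over the listed genes, Psmb2, Psmb5, Psmd9 and Psmb3 were higher instead. Their log2 fold changes were then 0.22, 0.023, 0.14 and 0.21. The other members named for either pattern kept their direction. Some members without either pattern changed direction too, and the windows were not counted again. The short GGGCGG box, bound by Sp-family activators, is in 26 of the 36 member windows against 33.1% of all windows, and the CCAAT box is in 17 against 37.5%. The 4 patterns do not contain each other, and a match is only a string of letters in the window.

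The deposited ARVM values are normalized read counts, each a whole number of reads divided by 1 size factor per library. Over the listed genes the libraries held 12122463 to 18842171 reads, and a member had between 258 and 12713 reads in a library. For some members, such as Psmb5 in control ARVM, the libraries differed by no more than counting error allows. The median coefficient of variation of the members was 5.03% in control ARVM and 4.72% in PH-CM ARVM, against 9.74% and 10.1% for all listed genes. Control ARVM carried the markers of their label, and the sum of these was much lower in PH-CM ARVM. Of 10 cardiomyocyte markers 9 were listed, all 9 lower in PH-CM ARVM, with summed normalized counts of 1272878 to 1343691 in control ARVM and 91962 to 109663 in PH-CM ARVM. Their log2 fold changes ran from -6.62 for Mb to -0.66 for Pln and -0.47 for Nppa. Over the alternatives that of Nppa ranged from -0.59 to -0.05. All 10 fibroblast markers were higher, with sums of 4290.2 to 5322 and 99941 to 146647. The paper describes ARVM in PH-CM as dedifferentiated, with alpha-actinin and troponin I protein still present and less alpha myosin heavy chain RNA after 7 days. In bulk RNA a smaller number of cells of one type and less RNA per cell cannot be told apart. Both tables hold only genes that the authors had selected for a difference: of 7052 ARVM genes only 5 differed by under 0.1 on the log2 scale, limma called 97.6% of them at an adjusted p under 0.05 (53.9% higher and 43.7% lower in PH-CM ARVM), and edgeR and DESeq2 on the recovered reads called 96.6% and 94.6%. The control and PH-CM values did not overlap for 100% of the listed genes. That a member was called, or that its groups were separated, is therefore no result about that member, and what follows describes direction, size and order. Adjusted p-values are from limma over all listed genes, and each fold change is a difference of log2(value + 1), PH-CM minus control, given ± its standard error (SE).

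In ARVM the constitutive proteasome and the immunoproteasome differed in opposite directions at the deposited scaling. All 14 listed core subunits were lower and called lower in PH-CM ARVM, with log2 fold changes from -0.83 to -0.20 and a median of -0.46, and 15 of 16 listed 19S subunits were called lower, with a median of -0.47 and a range of -1.18 to -0.14, against 43.7% of all listed genes called lower and a median of 0.37 over all of them. All 3 immunoproteasome subunits were called higher, by 0.69 to 1.12. The direction of the core and 19S subunits rested on the scaling between libraries, however. When each library was brought to the same total over the listed genes, a choice made after the values had been seen, the median of all listed genes moved from 0.37 to 0.80 and that of the core subunits from -0.46 to -0.03, with 3 core subunits called higher and 3 lower, and that of the 19S subunits from -0.47 to -0.05, with 2 called each way. At equal totals 56.9% of all listed genes were called higher and 22.5% lower. Relative to the median of the listed genes, a difference that a change of scaling hardly moves, the core median was -0.83 and the 19S median -0.85 as deposited, all 30 of these subunits lay below that median, and all 3 immunoproteasome subunits lay above it with a median of 0.35. The reference depends on the genes counted: it was 0.37 over all listed genes but 0.21 over the 6121 with a mean of at least 50. Any gene lower as deposited lies below such a median, and 44.9% of listed genes were lower. As a share of all reads over listed genes, the 41 members took 0.958% to 0.982% in control ARVM and 0.943% to 0.967% in PH-CM ARVM, ranges that overlap. The plot of all 41 fold changes gives both scalings.

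**Figure D1:**
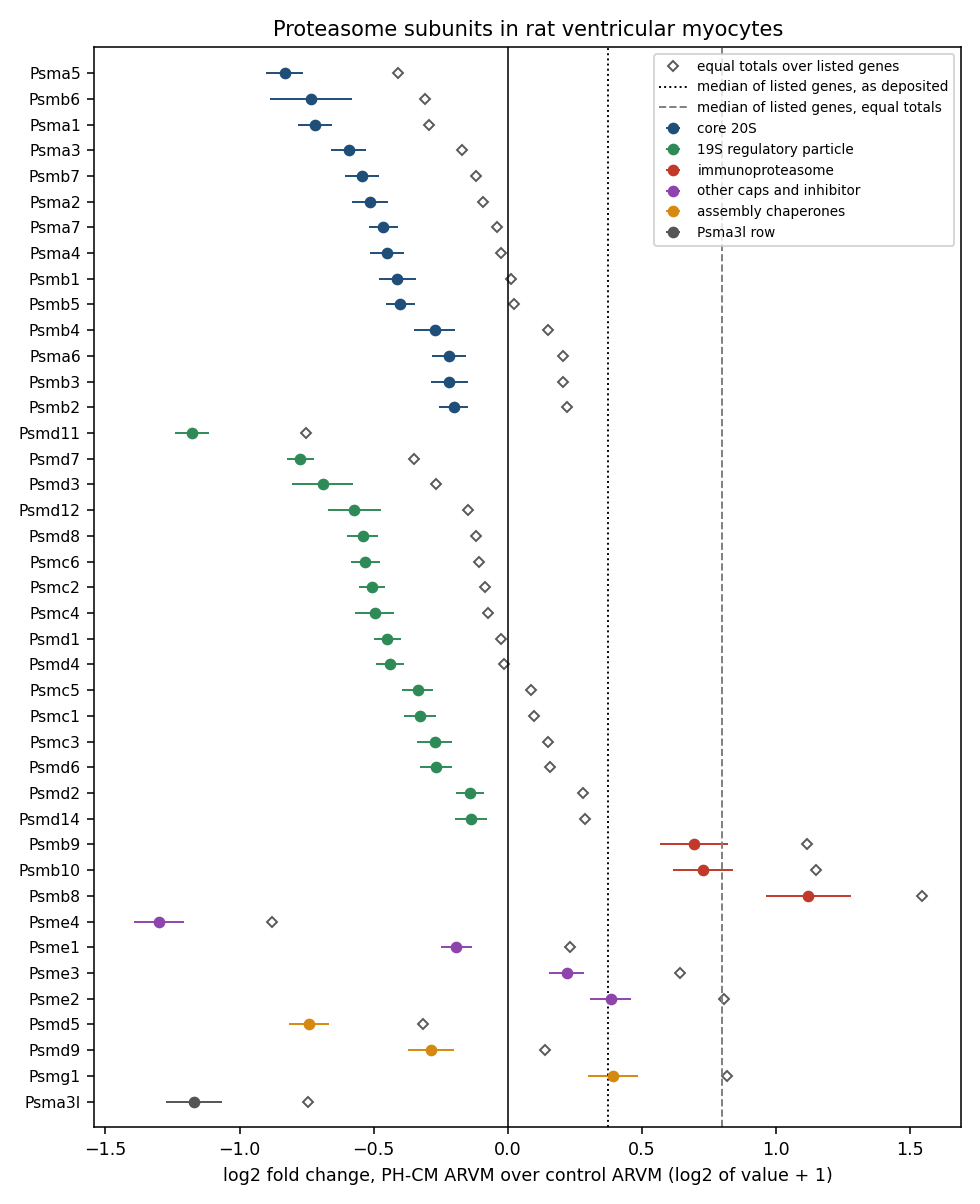
Log2 fold change of each of the 41 listed members, PH-CM ARVM over control ARVM (3 libraries each), by class, with filled points as deposited, bars of 1 SE, and open diamonds after equal totals. As deposited the core and 19S subunits lie between -1.18 and -0.14 and the immunoproteasome subunits between 0.69 and 1.12, while at equal totals 14 members that were lower lie above 0 and the dashed line, the median of listed genes, lies at 0.80 instead of 0.37 (dotted).

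Psmb8, Psmb9 and Psmb10 kept their direction under every scaling tried. The median of ratios, edgeR and DESeq2 left 3887 of 7052 listed genes higher, the number as deposited, and equal totals raised it to 4529. A gene higher as deposited could thus hardly change direction, so this is no result about these genes. Values by library are given throughout in the order con4, con5 and con6, then ha2, ha209 and ha211. Psmb8, the alternative chymotrypsin-like subunit, had normalized counts of 415, 573 and 408 in control ARVM and 1015, 865 and 1135 in PH-CM ARVM, a log2 fold change of 1.12 ± 0.16 (adjusted p = 0.00031). Psmb9, which takes the place of the caspase-like subunit, had 408, 457 and 399.8 and then 696, 587 and 775 (0.69 ± 0.13, adjusted p = 0.00113). Psmb10, the alternative trypsin-like subunit, had 888, 902 and 838 and then 1450.5, 1242 and 1688 (0.73 ± 0.11, adjusted p = 0.000476). For each of these genes PH-CM library ha211 was the highest library and PH-CM library ha209 the lowest of the treated ones. At equal totals the log2 fold changes were 1.54, 1.12 and 1.15. In GRCr8 Psmb8 and Psmb9 are neighbours on chromosome 20 and lie in the order Tap2, Psmb8, Tap1, Psmb9 among its protein-coding genes, whereas Psmb10 is on chromosome 19.

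The core partners of these subunits were lower as deposited, though not at equal totals for all 3. Psmb5, the constitutive chymotrypsin-like subunit, had 3249, 3247 and 3276 in control ARVM and 2549, 2335 and 2523 in PH-CM ARVM (-0.40 ± 0.055, adjusted p = 0.000269; 0.02 at equal totals). Psmb6, the caspase-like subunit, was the most variable, with 8446, 7547 and 6759 and then 5367, 3562 and 4903 (-0.73 ± 0.15, adjusted p = 0.00234; -0.31 at equal totals). Psmb7, the trypsin-like subunit, had 7373, 7154 and 7119 and then 4795, 5364 and 4721 (-0.54 ± 0.063, adjusted p = 0.000111; -0.12 at equal totals). At equal totals none of the 3 was called. Within the treated libraries PH-CM library ha209 had the lowest Psmb5 and Psmb6 but the highest Psmb7.

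**Figure D2:**
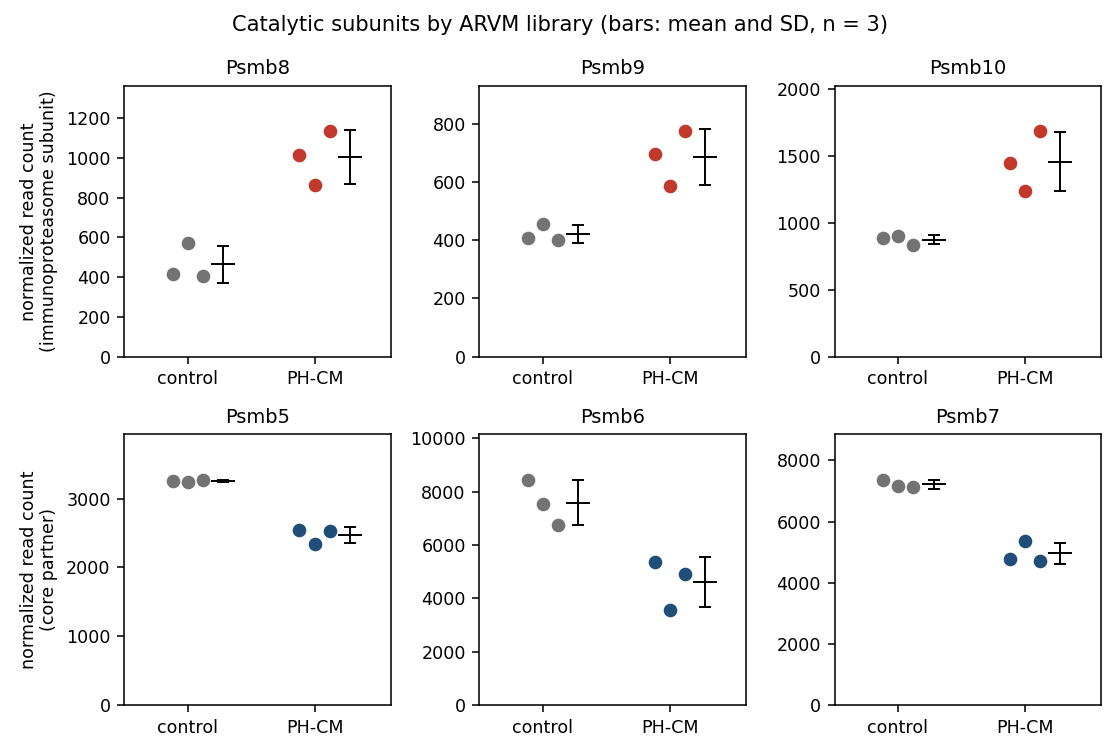
Normalized read count (linear axis from 0) of the 3 immunoproteasome subunits (top) and their core partners (bottom) in each ARVM library, 3 points per group, with the mean and SD beside them. The upper genes are higher in all 3 PH-CM libraries and the lower genes lower at the deposited scaling; at equal totals the log2 fold changes of the lower genes are 0.02, -0.31 and -0.12.

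The ratio of an immunoproteasome subunit to its partner within a library does not depend on any scaling of that library. Psmb8 counts were 12.8%, 17.7% and 12.5% of the Psmb5 counts in control ARVM and 39.8%, 37.1% and 45.0% in PH-CM ARVM, a ratio 2.87-fold higher. Psmb9 counts were 4.85%, 6.07% and 5.93% of the Psmb6 counts and then 13.0%, 16.5% and 15.8%, which is 2.69-fold higher. For Psmb10 over Psmb7 the shares were 12.1%, 12.6% and 11.8% and then 30.3%, 23.2% and 35.8%, or 2.41-fold higher. Because the deposit holds only genes whose groups are apart, and the members of each pair differ in opposite directions, the ratios had to separate the groups. The exact permutation test therefore gives no support, and the sizes are a description. Since the counts are not divided by gene length, the shares compare libraries for 1 pair and not the amounts of the paired transcripts.

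**Figure D3:**
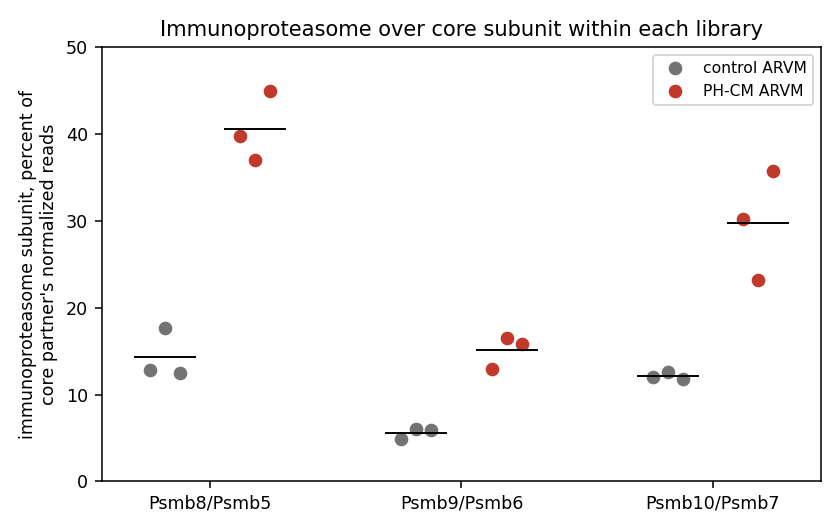
Normalized count of each immunoproteasome subunit as a percent of its core partner's, per ARVM library, with a line at the mean of each group of 3. Control libraries sit between 4.85% and 17.7% and PH-CM libraries between 13.0% and 45.0%.

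Leukocytes carry much immunoproteasome, and leukocyte markers were therefore set beside these genes. Of 14 such markers 12 were listed, 11 higher and 1 (Cd74) lower in PH-CM ARVM, none of them listed at 0 in all libraries of a group. Their summed normalized counts were 7092, 6997 and 6911 in control ARVM, most of it from Cd74, and 10160.0, 8373 and 12438 in PH-CM ARVM, where Lyz2 had the highest mean. The mean of Cd74 was 6691 in control ARVM and 449 in PH-CM ARVM, so the sums of the 2 groups rest on different genes. Ptprc, the pan-leukocyte phosphatase CD45, had a mean of 3.69 ± 6.40 (SD, n = 3) and then 99.99 ± 34.2, and Lyz2, a macrophage lysozyme, 40.8 ± 14.3 and then 6237 ± 1358. The leukocyte sum was highest in PH-CM library ha211 and lowest in ha209, the same order of treated libraries as for Psmb8, Psmb9 and Psmb10, and the fibroblast sum had that order too, with 115402 in ha2, 99941 in ha209 and 146647 in ha211. Endothelial markers, of cells that also express immunoproteasome subunits, were mostly lower, 9 of 10 called lower and Emcn higher, with sums of 10288 to 12295 and then 4327 to 5190.4. Over all listed ARVM genes 53.9% were called higher and 43.7% lower as deposited. Of the 4 erythroid markers 3 were listed, all at 0 in every PH-CM library. The part of leukocytes and of the other cell types in the proteasome differences was not tested.

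The 14 core subunits spread from -0.83 to -0.20 as deposited, while their median was alike in the treated libraries. In each PH-CM library the median core subunit stood at 0.719 to 0.731 times its control mean, against 0.961 to 1.05 in the control libraries, as deposited. The 7 alpha-ring subunits, which form the outer rings and the gate, had a median log2 fold change of -0.52, and the 7 listed beta-ring subunits outside the immunoproteasome one of -0.40. Psma5, an alpha-ring subunit, differed most among the core subunits, with 5754, 5200.4 and 5047 in control ARVM and 3146, 2863 and 2969 in PH-CM ARVM (-0.83 ± 0.068, adjusted p = 1.56e-05). Psma1, also of the alpha ring, had 5061, 4762 and 4618 and then 3013, 3027 and 2739 (-0.72 ± 0.064, adjusted p = 2.47e-05). Psma3, whose product lies in the same ring, had 3982, 3766 and 3721 and then 2738, 2391 and 2478 (-0.59 ± 0.067, adjusted p = 8.86e-05). Those were the 3 core subunits called lower under each scaling tried, with -0.41, -0.29 and -0.17 at equal totals. At the other end Psmb2, a beta subunit without catalytic activity, had 3278, 3206 and 3359 and then 2946, 2889 and 2724 (-0.20 ± 0.054, adjusted p = 0.00792), and at equal totals it was called higher (0.22), as were Psma6 and Psmb3. Psma8 and Psmb11, the subunits specific to testis and thymus, were not among the listed genes.

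A further row, Psma3l, had 3399, 3162 and 2542 in control ARVM and 1317, 1311 and 1389.6 in PH-CM ARVM (-1.17 ± 0.11, adjusted p = 2.69e-05; -0.75 at equal totals). How the authors' counting shared reads between Psma3 and Psma3l is not given in the sources used here, so each of these values is uncertain. The sum of both rows had a mean of 6858 ± 562 (SD, n = 3) in control ARVM and 3875 ± 177 in PH-CM ARVM, a log2 fold change of -0.82, against -0.59 for Psma3 alone.

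The 19S regulatory particle had fold changes of a size similar to those of the core and a like dependence on scaling. In each PH-CM library the median 19S subunit stood at 0.710 to 0.748 times its control mean, against 0.981 to 1.02 in control libraries. By position, the medians were -0.42 for the 6 ATPases of the base (Psmc1 to Psmc6), -0.44 for the 3 other base subunits and -0.57 for the 7 listed lid subunits. Psmd11, a lid subunit that braces the lid against the core, had the most negative fold change of the 19S genes, with 7471, 6483 and 6899 in control ARVM and 3132, 3082 and 2991 in PH-CM ARVM (-1.18 ± 0.064, adjusted p = 1.92e-06). Psmd7, the lid partner of the deubiquitinase Psmd14, had 5033, 4797 and 5044 and then 2939, 2915 and 2841 (-0.77 ± 0.05, adjusted p = 4.66e-06). Psmd11 and Psmd7 were the 2 members of the 19S particle called lower under each scaling, with -0.75 and -0.35 at equal totals.

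Psmd14, which cuts ubiquitin chains from substrates, was the only member not called, with 1532, 1426 and 1519 in control ARVM and 1359, 1374 and 1335 in PH-CM ARVM (-0.14 ± 0.059, adjusted p = 0.0526, range over alternatives 0.00349 to 0.143). At equal totals it was called higher (0.29). Its heterodimer partner Psmd7 was thus lower by 0.77 where Psmd14 differed by 0.14 on the same scale, a difference between genes that no scaling of libraries changes. Psmd2, a scaffold of the base that binds ubiquitin-like domains, had 5493, 5629 and 5929.6 and then 5153, 5119 and 5166 (-0.14 ± 0.052, adjusted p = 0.0272). The Psmd2 call was lost without con5, without con6 and without ha2 (adjusted p = 0.0640, 0.109 and 0.0522, range over alternatives 0.00232 to 0.109), and at equal totals the gene was called higher (0.28). Psmd1, the other large scaffold of the base, had 6243, 5926 and 6119 and then 4388, 4597 and 4403 (-0.45 ± 0.051, adjusted p = 9.48e-05; -0.03 at equal totals). Psmd12, a lid subunit, had 4769.9, 4004 and 4178 and then 2675, 3284 and 2764 (-0.57 ± 0.098, adjusted p = 0.000836; -0.15 at equal totals). Neither Psmd1 nor Psmd12 was called at equal totals. The lid subunit Psmd13 was not among the listed ARVM genes.

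The alternative caps did not move together. Psme4, a large single-chain cap that opens the core gate without ubiquitin or ATP, had the most negative fold change of all 41 members, with 7957, 7206 and 7484 in control ARVM and 2924, 3524 and 2781 in PH-CM ARVM (-1.30 ± 0.093, adjusted p = 7.68e-06; -0.88 at equal totals). Psme1 and Psme2 encode the chains of a mixed ring that interferon induces and that caps immunoproteasomes. Psme1 had 10912, 10429 and 11119.5 and then 9614, 9726 and 9049.6 (-0.19 ± 0.058, adjusted p = 0.0125), and at equal totals it was called higher (0.23). Psme2 had 3711, 3439 and 3259 and then 4542, 4177 and 4855 (0.38 ± 0.075, adjusted p = 0.0018; 0.81 at equal totals). So the paired chains of 1 cap differed in direction as deposited, and both were higher at equal totals. Psme3, the chain of a nuclear cap, had 1013, 1079 and 1011 and then 1186, 1248 and 1178 (0.22 ± 0.065, adjusted p = 0.0122; 0.64 at equal totals). Of the 4 listed caps 2 were thus called higher and 2 lower as deposited, against 3 higher and 1 lower at equal totals. Over all listed genes 53.9% were called higher and 43.7% lower as deposited, and 56.9% and 22.5% at equal totals, so these counts are no result about the caps. Psmf1, the inhibitor of the core, was not among the listed genes.

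**Figure D4:**
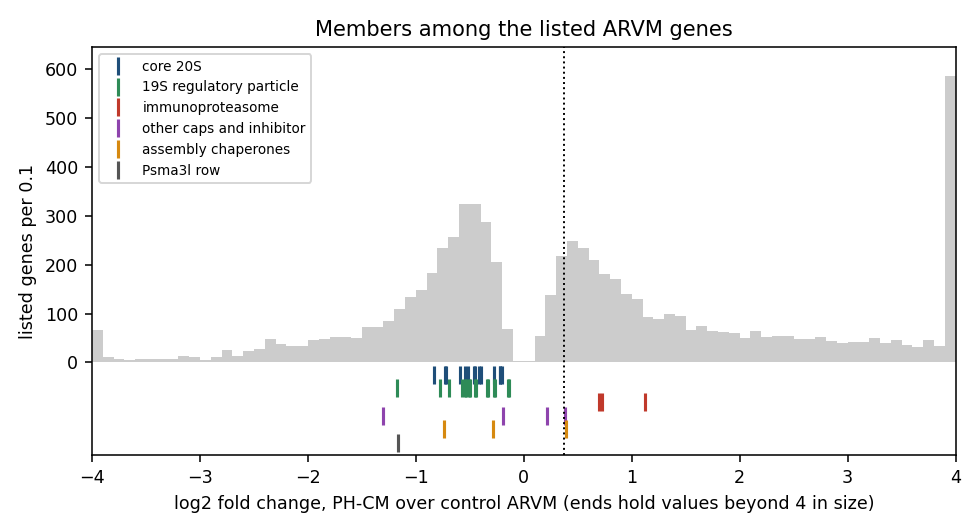
Number of the 7052 listed ARVM genes per 0.1 of log2 fold change as deposited (grey bars, with values beyond 4 in size placed in the end bars), with the members of each class as ticks under the axis and the median of all genes, 0.37, dotted. Few bars stand near 0 because the table holds selected genes, and the core and 19S ticks lie between -1.18 and -0.14, left of the median, a side they keep at equal totals, where 14 of the 41 members change sign.

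Of the 7 assembly chaperones, which build the rings and then leave, 3 were listed. Psmd5, a chaperone of the base, had 1693, 1667 and 1622 in control ARVM and 1086, 964 and 936 in PH-CM ARVM (-0.74 ± 0.074, adjusted p = 4.78e-05; -0.32 at equal totals). Psmd9, another base chaperone, had 1067, 1306 and 1220.0 and then 976, 972 and 987 (-0.29 ± 0.086, adjusted p = 0.0124), and 0.14 at equal totals without being called. Psmg1, which nucleates the alpha ring, was higher instead, with 472, 440.2 and 497 and then 629.9, 627 and 591 (0.39 ± 0.092, adjusted p = 0.00416; 0.81 at equal totals). Psmg2, Psmg3, Psmg4 and Psmd10 were not listed. Over all classes 8 members were called lower (Psma1, Psma3, Psma5, Psma3l, Psmd7, Psmd11, Psme4 and Psmd5) and 6 higher (Psmb8, Psmb9, Psmb10, Psme2, Psme3 and Psmg1) under each of 5 scalings and count models, and 27 were not. The share of all listed genes that met this rule was not computed. At equal totals alone 56.9% of all listed genes were called higher and 22.5% lower. That scaling moved fold changes up, so a member higher as deposited could hardly fail the rule, and the counts are a description.

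Genes that work beside the proteasome gave mixed directions in ARVM. Of 25 partners of the proteasome 13 were listed, 3 called higher, 9 lower and 1 (Akirin2, needed for import of proteasomes into the nucleus) not called at 0.17 ± 0.077. Over all listed genes 53.9% were called higher and 43.7% lower as deposited, and 56.9% and 22.5% at equal totals. Txnl1, a thioredoxin-like protein bound to the 19S particle, was lowest at -0.91 ± 0.071, followed by Shfm1 (Sem1), the smallest lid component, at -0.71 ± 0.062 and Ufd1l, a cofactor of the segregase Vcp, at -0.61 ± 0.072. Zfand2a, induced by proteotoxic stress, was 0.43 ± 0.067 higher, and the shuttle factor Ubqln2 was higher by 0.39 ± 0.14, a call lost without con4, ha2 or ha209 (adjusted p = 0.0543, 0.0663 and 0.0679, range over alternatives 0.00101 to 0.102). At equal totals 4 partners were called higher and 2 lower. Pomp, the chaperone that completes the core, was at -0.49 ± 0.084 and -0.06 at equal totals, close to the core median of each scaling.

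Of 22 genes of ubiquitin, its activation and conjugation 12 were listed, 4 called higher and 8 lower, against 5 and 1 at equal totals. The shares over all listed genes were 53.9% higher and 43.7% lower as deposited, and 56.9% and 22.5% at equal totals. Ubb, a polyubiquitin gene, was higher by 1.03 ± 0.087, with means of 8885 ± 926 (SD, n = 3) and 18144 ± 854 normalized counts. Rps27a, which encodes ubiquitin fused to a ribosomal protein, had 3757, 32941 and 36962 normalized counts in control ARVM, and its log2 fold change of 1.85 ± 0.78 came down to 0.78 without con4. The Rps27a call was lost without ha2, ha209 or ha211 and by edgeR and DESeq2 (adjusted p = 0.110, 0.128, 0.107, 0.0626 and 0.137, range over alternatives 0.00102 to 0.227). Ube2k, a conjugating enzyme, was higher by 0.39 ± 0.075. The conjugating enzymes Ube2g1 and Ube2d1 and the ligase scaffold Cul4a were lower, at -1.30 ± 0.077, -0.82 ± 0.18 and -0.59 ± 0.066.

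Of 14 ubiquitin ligases known from muscle wasting and the sarcomere 10 were listed, with 3 called higher and 7 lower. Over all listed ARVM genes 53.9% were called higher and 43.7% lower as deposited. All 10 ligases kept their direction under each alternative. Asb2 and Fbxl22, ligase adaptors of striated muscle, were at -2.60 ± 0.23 and -1.86 ± 0.18, and Cblb, a ligase for growth factor signalling, at -1.21 ± 0.16. Trim63, the muscle ring finger ligase MuRF, was at -0.91 ± 0.093, whereas Fbxo32, the other ligase of atrophy, was at 0.36 ± 0.10. Trim32 and Nedd4 were higher by 0.75 ± 0.16 and 0.58 ± 0.068. Of 14 genes of class I antigen presentation 7 were listed, 6 called higher and Irf1, an interferon-driven activator of immunoproteasome genes, called lower at -0.16 ± 0.059 (0.27 at equal totals, where all 7 were called higher). The share of all listed genes called higher was 53.9% as deposited and 56.9% at equal totals. The calls of B2m (without con5, con6, ha2 or ha211, adjusted p up to 0.102) and of Irf1 (without con5, con6 or ha2, up to 0.122) each rested on single libraries, and Tapbp was not called by the unequal-variance test. Pdia3, Tapbpl and Calr, which help load peptide onto class I molecules, were higher by 0.92 ± 0.053, 0.88 ± 0.11 and 0.63 ± 0.10. Tap1 and Tap2, the peptide transporter genes next to Psmb8 and Psmb9, were not listed.

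In calf fibroblasts only 19S subunits were listed, 4 of the 17, and none of the core, immunoproteasome, cap or chaperone genes. The deposited Cfib values are scaled by gene length and library, their exact unit was not settled and their depth is unknown. Limma called 97.5% of the 2115 listed genes, 39.4% lower in PH Cfib, and the groups did not overlap for 100% of them. All 4 subunits were lower in all 3 PH Cfib libraries than in any CO Cfib library and were called lower. The all-gene median was 0.33 as deposited, 0.07 after rescaling by the median of ratios and 0.24 at equal totals, and the 4 genes kept direction and call under each of these.

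Values for Cfib are given for libraries 1, 2 and 3 of CO Cfib and then of PH Cfib. PSMD12, the lid subunit, had 69.2, 67.8 and 79.3 and then 45.8, 48.1 and 50.9 (-0.57 ± 0.08, adjusted p = 0.000691). PSMD2, the base scaffold, was the most abundant of the 4 per length, at 131, 146 and 133 and then 101, 106 and 107 (-0.38 ± 0.066, adjusted p = 0.00167). PSMD1, its counterpart in the base, had 59.9, 65.6 and 63.4 and then 46.8, 48.5 and 49.2 (-0.38 ± 0.058, adjusted p = 0.00099). PSMD13, a structural lid subunit, differed least, at 78.0, 70.7 and 72.6 and then 58.3, 60.9 and 66.1 (-0.25 ± 0.071, adjusted p = 0.0122). Per length, PSMD2 was higher than the other 3 in each of the 6 libraries. PSMD12 and PSMD13 overlapped in CO Cfib and were apart in PH Cfib, where PSMD12 was the lower. The median subunit stood at 0.743 to 0.783 times its CO mean in the PH Cfib libraries and at 0.958 to 0.999 times in the CO Cfib libraries.

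**Figure D5:**
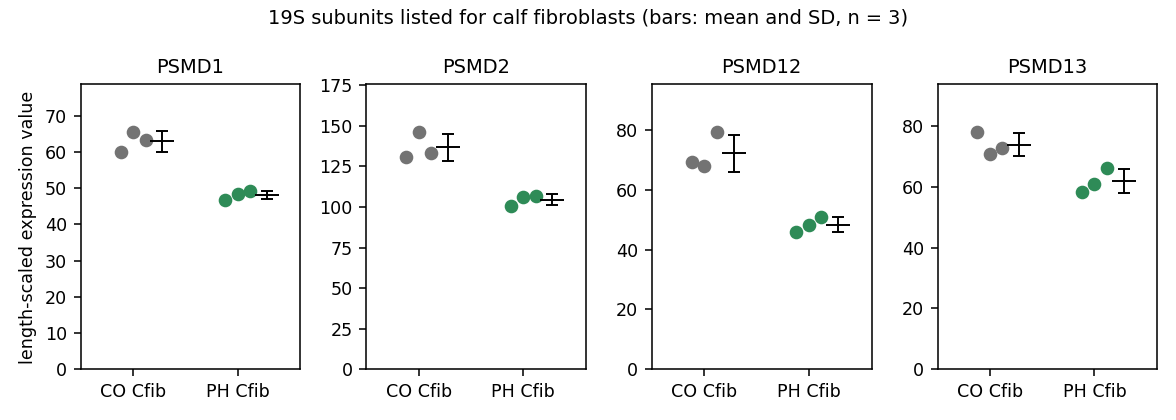
Length-scaled expression value (linear axis from 0) of the 4 listed 19S subunits in each Cfib library, 3 points per group, with the mean and SD beside them. In each panel all 3 PH Cfib points lie under all 3 CO Cfib points, as they do after rescaling.

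Psmd1, Psmd2 and Psmd12 were the genes listed for both cell types. Their log2 fold changes were -0.45, -0.14 and -0.57 in ARVM as deposited (-0.03, 0.28 and -0.15 at equal totals) and -0.38, -0.38 and -0.57 in Cfib. The contrasts differ in species, cell type and treatment and the tables were normalized separately, so no test across them was made. Among the other Cfib genes, TAP1, TAP2, IRF1 and TAPBPL, all 4 listed genes of class I antigen presentation, were called lower in PH Cfib, at -1.28 ± 0.096, -1.11 ± 0.13, -0.69 ± 0.18 and -0.25 ± 0.081. These were 4 of the 14 genes of that list, and 39.4% of all listed Cfib genes were called lower. The TAPBPL call was lost without CO Cfib 1 or PH Cfib 1 (adjusted p = 0.0613 and 0.0693, the latter the highest over its alternatives). VCP, the segregase that delivers substrates to the proteasome, was lower at -0.27 ± 0.065, and NFE2L2, an activator of antioxidant response elements, was higher at 0.25 ± 0.052, though at -0.03 and not called after rescaling by the median of ratios. CUL1, a ligase scaffold, was called lower at -0.20 ± 0.067, a call lost without CO Cfib 2, PH Cfib 1 or PH Cfib 2, and CUL3 was not called at 0.14 ± 0.058. CBLB, the 1 listed muscle ligase gene, was at 2.14 ± 0.65, with 19.1, 15.7 and 2.29 in CO Cfib and 47.1, 43.2 and 43.3 in PH Cfib. Without CO Cfib 3, the lowest library, its log2 fold change was 1.31. Of all 2115 listed Cfib genes 1262 were higher and 853 lower in PH Cfib. Of 14 leukocyte markers 8 were listed for Cfib, 7 higher and CD14 lower, with sums of 13.2 to 15.7 and then 21.0 to 23.0, C1QA and C1QB being listed at 0 in all CO Cfib libraries. Several of these values are near the floor: CD74 had means of 0.14 in CO Cfib and 1.03 in PH Cfib, and TYROBP 0.21 and 1.05. Over the alternatives the log2 fold change of CD74 ranged from 0.12 to 2.39. The part of leukocytes in these differences was not tested.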

How the data were processed

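Ribosome-depleted RNA was sequenced by the authors on a HiSeq4000. Their pipeline was HISAT2 and StringTie (rn6 for ARVM, bosTau8 for Cfib) followed by DESeq2 normalization, and only genes above a minimum expression and selected for a difference were deposited. The deposited ARVM values are a signal, reads divided by a size factor (0.632 to 1.32): 100% of values in each library were whole reads within 0.01 reads. For Cfib the deposited signal is scaled by length and library, with unit and depth unknown. Of the deposited per-sample columns 0 were left without a sample.

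Groups, taken from the sample titles, entered limma 3.58.1 in R 4.3.3 (trended eBayes, log2 of the value plus 1). The Benjamini-Hochberg adjustment covered the whole table, with a threshold of 0.05. On the ARVM reads edgeR 4.0.16 (quasi-likelihood, TMM) and DESeq2 1.42.0 were run. Ratios, exact permutation tests, sequences and plots used Python 3.11.15, numpy 2.4.6, scipy 1.17.1, pandas 2.3.3 and matplotlib 3.10.9. Alternatives were a pseudocount of 0.1 or 10, a minimum mean (50 for ARVM, 5 for Cfib), the median of ratios, eBayes without trend, an unequal-variance test, each library left out and, for Cfib, a block by replicate number. Equal totals and the sum of Psma3 and Psma3l were added after the values were seen. The fits were also run on simulated data in which a small set of genes differed and the others were equal. Nearly all genes in the deposited tables were selected for a difference, so that run does not bear on the calls here.

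The members and gene lists were chosen with earlier results of these data known. Named with every value are the catalytic pairs, the caps, the extremes of each class, members against their class or not called, those in both tables and all in Cfib; Psma1, Psma3 and Psmd7 were added after their values were seen. Of each other list, up to 3 called genes per direction with the largest change are named, and a further item is not reported here; Akirin2, Pomp, Trim63, CUL3, Irf1, B2m, Tapbp and the marker genes were chosen after their values were seen.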

Additional observations from a re-analysis of the deposited data

How the results depend on the processing

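At equal totals 56.9% of all listed ARVM genes were called higher and 22.5% lower. The counts of calls among the lists were then 6 core subunits, 4 of the 19S particle, 6 proteasome partners and 6 ubiquitin genes, the last 2 lists mostly higher. The log2 fold changes that changed sign there were 0.20 for Psma6, 0.012 for Psmb1, 0.22 for Psmb2, 0.21 for Psmb3, 0.15 for Psmb4, 0.023 for Psmb5, 0.10 for Psmc1, 0.15 for Psmc3, 0.087 for Psmc5, 0.28 for Psmd2, 0.16 for Psmd6, 0.29 for Psmd14, 0.23 for Psme1 and 0.14 for Psmd9. The scaling follows from what the listed genes sum to, and which scaling is nearer to RNA per cell was not tested. Under the other ARVM alternatives all members kept their direction. Psma6, Psmb3, Psmd2 and Psmd9 lost their call with the unequal-variance test, Psmd2 also with eBayes without trend and without some libraries, and Psmd14 gained one under 4 alternatives. edgeR and DESeq2 called the same 40 members as limma. The log2 partner ratios ranged over left-out libraries from 1.43 to 1.68 for Psmb8, 1.32 to 1.53 for Psmb9 and 1.12 to 1.44 for Psmb10. For Cfib no partner ratio could be computed, as none of these genes was listed. The 4 Cfib subunits kept direction and call under each alternative. Of the Cfib proteasome partners 1 was called after the median of ratios. Of the ubiquitin genes 2 were called with the unequal-variance test and with a minimum mean of 5, between 0 and 1 where a call changed on leaving out a library (CO Cfib 2, where the 1 call was CUL3, higher, or PH Cfib 1 or 2), and 0 with the block. CBLB lost its call with the unequal-variance test (0 called). Deviations of Cfib libraries with equal numbers correlated at 0.258, 0.0312 and 0.259, CO Cfib 2 correlated better with PH Cfib 1, and nothing in the labels ties the numbers, so they were not treated as pairs. The block also lost the call of TAPBPL, as did the unequal-variance test, and changed no other count of calls by over 1.5 times. ARVM groups share no replicate numbers. The Cfib depth being unknown, no counting error could be set beside those values.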
